A study of Homo sapiens with 6 samples.

Results

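The 58 genes described here encode the machinery of G2 and mitosis: CDK1 and its cyclins, the transcription factors of the G2 programme, mitotic kinases, kinetochore and spindle proteins, cytokinesis factors and proteins that shape mitotic chromosomes. They were chosen by name, and every probe carrying a member's name on the array was taken. Of 43317 gene names on the array, 21697 had a tested probe, among them all 58 members. The members had 76 probes, of which 73 were tested, and each gene is represented by its tested probe with the highest mean intensity. In dividing cells CDK1 bound to B-type cyclins drives entry into mitosis, kinetochore and spindle proteins attach and separate the chromosomes, and the anaphase-promoting complex (APC/C), a ubiquitin ligase, ends mitosis by destroying cyclin B and securin. Transcripts of this programme accumulate late in the cell cycle, under the factors MYBL2 and FOXM1 with the MuvB complex. In prostate cancer their level is widely read as a measure of proliferation.

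RNA came from 22RV1, an established human prostate cancer line labelled SPINK1 positive, on 6 Agilent 2-colour arrays. The cells stably carried a lentiviral pLemiR vector for miR-338-5p (replicates 1, 2 and 3), a pLemiR vector for miR-421 (a pool and replicates 1 and 2), or pLemiR-RFP as control, and all were kept under puromycin. Cy5 held the miRNA line and Cy3 the control on every array, with no dye swap, so a dye bias of a probe enters each ratio. What was pooled, and whether replicates were separate cultures, is not stated, so p-values measure the spread between these samples, which may be technical. The level of the miRNAs themselves was not analysed here.

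MicroRNAs lower the output of messenger RNAs that pair with their seed, bases 2 to 8 from the 5′ end, in capitals in these mature sequences from RefSeq (GRCh38.p14). They are shown because they are the agents compared, and their seeds differ. The gene of miR-338-5p is on chromosome 17 (mature sequence at 81125923 to 81125944, minus strand), and that of miR-421 is on chromosome X (74218392 to 74218414, minus strand).
hsa-miR-338-5p: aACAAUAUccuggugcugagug
hsa-miR-421: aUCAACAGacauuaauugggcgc

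In Cy3, the control dye, 47.3% to 47.9% of gene spots were well above background on the miR-338-5p arrays and 44.3% to 44.4% on the miR-421 arrays. The control channel thus differed with the line, and why was not tested. In Cy5 the share was 41.9% on miR-421 replicate 1 and 46.8% to 48.3% on the other 5 arrays. Saturated gene spots numbered 0 on all arrays. The prostate epithelial markers KLK2, KLK3, HOXB13 and FOLH1 were above background on all 6 arrays, while the fibroblast genes COL1A2 and COL3A1 and the endothelial gene PECAM1 were above it on 0. VIM, COL1A1, CD3E, CDH5 and a probe each of PTPRC and VWF were above background on all 6 arrays. SPINK1, whose product is a secreted trypsin inhibitor, had log2 ratios between -7.01 and -2.10 on the 6 arrays.

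Most members were lower in both miRNA lines than in control. Values are log2 ratios of the miRNA line over control, normalized so that the genes on each array centre near 0, and a call is a limma adjusted p under 0.05 (Benjamini-Hochberg, over all tested probes). Under miR-338-5p, 12 of 58 members were called lower, against 5.26% of all genes, and 1 was called higher, against 3.99%. Under miR-421, 15 were called lower, against 12.6% of all genes, and 3 were called higher, against 10.0%. The member count under miR-421 therefore stands on a much higher background of calls. The median member stood at -0.42 in the miR-338-5p line and at -0.35 in the miR-421 line, while the median of all genes was within 0.01 of 0 in either line.

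The lower values were spread over many members rather than held by those called. In the miR-338-5p line 48 members had a mean below 0, and in the miR-421 line 46. These are 82.8% and 79.3% of the members, against 50.2% and 48.6% of all genes. All 3 arrays were below 0 for 38 and 33 members of these lines (65.5% and 56.9%), against 26.6% and 30.4% of all genes. All 6 arrays were below 0 for 27 members (46.6%), against 17% of all genes. At an unadjusted p under 0.05, 35 and 29 members passed in either direction (60.3% and 50%), against 27.7% and 38.8% of all genes, and 32 and 24 of them were lower. In these bulk samples fewer cells in G2 or mitosis and less RNA per cell cannot be told apart. Both comparisons rest on RNA of the pLemiR-RFP line, and how many control cultures were used is not stated.

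The size of the fall differed between arrays of the same line. The member median was -0.24, -0.53 and -0.45 on miR-338-5p replicates 1, 2 and 3. It was -0.17 in the miR-421 pool, -0.81 on miR-421 replicate 1 and -0.19 on miR-421 replicate 2. The 3 miR-338-5p arrays lay between the pool and replicate 1 of miR-421. A ratio below -1 was found for 19 members on miR-421 replicate 1, 11 on miR-338-5p replicate 2 and 2 to 7 on the other 4 arrays. All genes were wider on that array as well, with an interquartile range of 0.493 against 0.272 to 0.374 on the other 5.

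**Figure D1:**
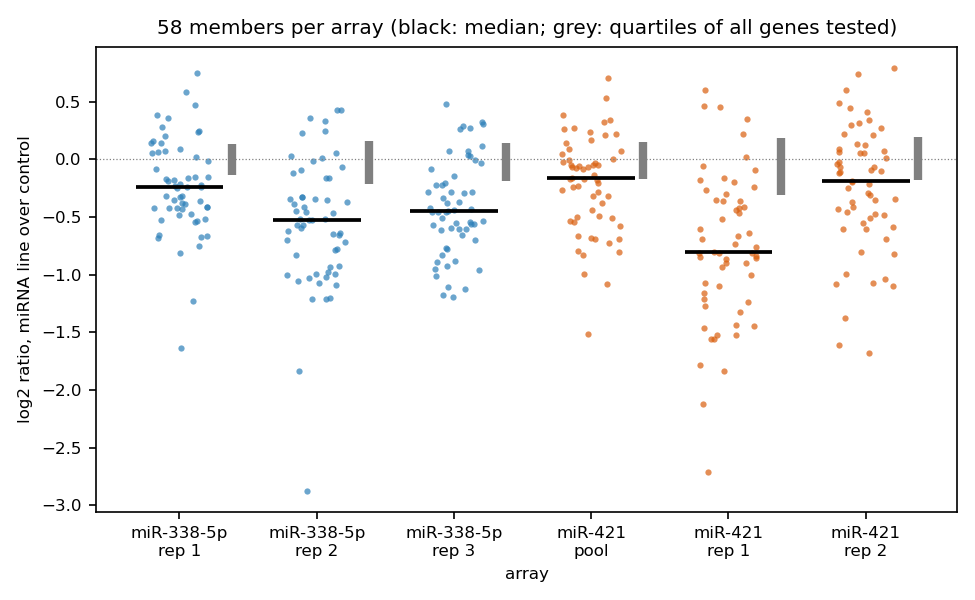
Log2 ratio of each of the 58 members (points) on each array, with the member median as a black bar and the quartiles of all tested genes as a grey bar. The member median is below 0 on every array and lowest, at -0.81, on miR-421 replicate 1.

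Of the 7 members formed by CDK1 and its partners, 4 were called lower under miR-421 (CDK1, CCNA2, CKS1B and CKS2) and 2 under miR-338-5p (CDK1 and CCNA2). Over all genes the shares called lower were 12.6% and 5.26%, in the same order. CDK1, the kinase that triggers mitosis, was at -0.33, -0.66 and -0.77 on miR-338-5p replicates 1 to 3, and at -0.998 in the pool, -0.90 on replicate 1 and -1.37 on replicate 2 of miR-421. Every miR-421 array was below every miR-338-5p array. The means were -0.59 ± 0.23 (SD, n = 3; adjusted p = 0.0405) and -1.09 ± 0.25 (SD, n = 3; adjusted p = 0.00607), so CDK1 signal under miR-421 was 47.0% of control. Its probe (NM_001786) lies on chromosome 10 at 62552004 to 62553650, plus strand, hg19. Under miR-421 CDK1 was called in 17 of 18 alternative analyses, and under miR-338-5p in 7 of 18.

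CCNA2, cyclin A2, which serves S phase and early mitosis, moved alike in both lines. It was at -0.67, -1.002 and -0.60 on the miR-338-5p arrays and at -0.68 (pool), -0.90 and -0.82 on the miR-421 arrays. The values of the lines overlapped, and all 6 were at -0.60 or below. The means were -0.76 ± 0.22 (SD, n = 3; adjusted p = 0.0133) and -0.80 ± 0.11 (SD, n = 3; adjusted p = 0.00639), and the calls held in 15 and 16 of 18 alternatives. CKS2, a small subunit of CDK complexes, was at -0.23, -0.93 and -0.56 under miR-338-5p, and at -0.79 (pool), -0.64 and -1.10 under miR-421. Its call was made under miR-421 (mean -0.84 ± 0.24, SD, n = 3; adjusted p = 0.016) and not under miR-338-5p (adjusted p = 0.0661). The related CKS1B was called lower under miR-421, at -0.49 ± 0.08 (SD, n = 3; adjusted p = 0.00832). A second CKS1B probe was at -0.31 under miR-421 without a call (adjusted p = 0.0543), and read -0.10 on replicate 1.

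The B-type cyclins were called in neither line. CCNB1, cyclin B1, was at -0.41, -0.35 and 0.07 on the miR-338-5p arrays, and at 0.17 (pool), -0.85 and -0.04 on the miR-421 arrays. In the miR-421 line replicate 1 alone was far from 0, and neither line passed (adjusted p = 0.54 and 0.444). A second CCNB1 probe gave lower means, -0.67 and -0.80 in the lines, also without a call, and read -1.63 on miR-421 replicate 1. CCNB2 had means of -0.27 in both lines without a call. CDC25C, the phosphatase that activates CDK1, was at 0.25, 0.43 and 0.07 under miR-338-5p, and at 0.53 (pool), -0.09 and 0.13 under miR-421, and did not pass in either line (adjusted p = 0.278 and 0.327).

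The transcription factors were called lower under miR-338-5p. MYBL2, which activates late cell-cycle genes with the MuvB complex, was at -0.32, -0.52 and -0.29 on the miR-338-5p arrays and at 0.27 (pool), 0.60 and 0.49 on the miR-421 arrays. The lines did not overlap and had opposite signs. MYBL2 was called lower under miR-338-5p (mean -0.37 ± 0.13, SD, n = 3; adjusted p = 0.0476) and higher under miR-421 (0.45 ± 0.17, SD, n = 3; adjusted p = 0.0183). These calls were made in 4 and 14 of 18 alternatives, and the sign in each line held in all 18. The difference between lines was -0.83 with a standard error of 0.12, and it did not pass over all probes (adjusted p = 0.084). The probe (NM_002466) lies on chromosome 20 at 42343796 to 42343855, plus strand, hg19.

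FOXM1, the forkhead factor of G2 genes, was at -0.35, -0.42 and -0.46 on the miR-338-5p arrays, a narrow spread. On the miR-421 arrays it was at -0.07 (pool), -0.18 and 0.27. It was called lower under miR-338-5p (mean -0.41 ± 0.05, SD, n = 3; adjusted p = 0.0488), a call made in 5 of 18 alternatives, and was at 0.01 ± 0.23 under miR-421 (SD, n = 3; adjusted p = 0.969). The lines did not overlap, and the difference did not pass (adjusted p = 0.263).

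Among the 7 mitotic and checkpoint kinases, 1 was called lower and 1 higher under miR-421, and 0 were called under miR-338-5p. Over all genes, 12.6% were called lower and 10.0% higher under miR-421, and 5.26% and 3.99% under miR-338-5p. PLK1, polo-like kinase, was above 0 on all 6 arrays: 0.14, 0.24 and 0.48 under miR-338-5p, and 0.22 (pool), 0.46 and 0.60 under miR-421. It was called higher under miR-421 (mean 0.43 ± 0.19, SD, n = 3; adjusted p = 0.0309), in 10 of 18 alternatives. A second PLK1 probe was at 0.13 in both lines without a call (adjusted p = 0.539 and 0.45), so the call rests on 1 probe. That second probe was dimmer, with a mean log2 intensity of 6.27 against 7.93, and is weak evidence either way. BUB1B, the checkpoint kinase-like protein BUBR1, was at -0.53, -0.995 and -1.18 under miR-338-5p, and at -0.50 (pool), -1.56 and -0.61 under miR-421. The means were close, -0.90 and -0.89, and the call was made under miR-421 (adjusted p = 0.042; 0.0635 under miR-338-5p), in 7 of 18 alternatives.

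The Aurora kinases were lower in the mean under miR-338-5p without a call. AURKA, which matures centrosomes, was at -0.55, -0.78 and -0.42 under miR-338-5p, and at -0.27 (pool), -1.16 and -0.19 under miR-421. AURKB, the kinase of the chromosomal passenger complex, was at -0.38, -0.72 and -0.23 under miR-338-5p, and at -0.06 (pool), -0.20 and 0.34 under miR-421. The lines overlapped for AURKA and did not for AURKB (adjusted p of the AURKB difference = 0.358). TTK, the checkpoint kinase MPS1, was at 0.36, 0.43 and -0.33 under miR-338-5p and at -0.51 (pool), -0.35 and -0.80 under miR-421. The lines did not overlap, and TTK was not called under miR-421 (mean -0.55 ± 0.23, SD, n = 3; adjusted p = 0.0605), nor did its difference pass (adjusted p = 0.283). In 9 of 18 alternatives TTK was called lower under miR-421.

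The remaining kinases, BUB1 of the spindle checkpoint and NEK2 of centrosome separation, were not called. BUB1 was below 0 on all 3 miR-338-5p arrays with a mean of -0.49, and its miR-421 mean of -0.32 became -0.07 without replicate 1. NEK2 had means of -0.46 and -0.60, the latter becoming -0.30 without replicate 1, and its second probe gave -0.24 and -0.30.

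The APC/C partners pointed in opposite directions. UBE2C, the ubiquitin-conjugating enzyme of the APC/C, was at -0.18, -0.62 and -0.43 under miR-338-5p and at -0.49 (pool), -0.66 and -0.55 under miR-421. It was called lower in both lines (adjusted p = 0.0472 and 0.0131), in 4 and 13 of 18 alternatives. CDC20, the activator of the APC/C at anaphase, was at 0.38, 0.01 and 0.11 under miR-338-5p and at 0.34 (pool), 0.22 and 0.79 under miR-421, above 0 on all 6 arrays without a call (adjusted p = 0.459 and 0.0528).

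Kinetochore genes held the lowest values under miR-421. CENPE, the kinesin that carries chromosomes to the spindle equator, was at -0.32, -0.64 and -0.96 on the miR-338-5p arrays and at -1.52 (pool), -1.33 (replicate 1) and -1.68 (replicate 2) on the miR-421 arrays. All miR-421 arrays were below all miR-338-5p arrays. The means were -0.64 ± 0.32 (SD, n = 3; adjusted p = 0.0395) and -1.51 ± 0.18 (SD, n = 3; adjusted p = 0.00344), so the signal under miR-421 was 35.2% of control. The calls were made in 7 and 17 of 18 alternatives. Over these the miR-421 mean ran from -2.32 to -1.42, so the percentage depends on the processing. The difference of 0.87, with a standard error of 0.18, did not pass (adjusted p = 0.16). The probe (NM_001813) lies on chromosome 4 at 104027339 to 104027398, minus strand, hg19.

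NUF2, a subunit of the NDC80 complex that grips microtubules, was at 0.20, -0.06 and -0.55 under miR-338-5p and at -1.08 (pool), -0.85 and -1.61 under miR-421. It was called lower under miR-421 (mean -1.18 ± 0.39, SD, n = 3; adjusted p = 0.0126), at 44.1% of control, and not under miR-338-5p (adjusted p = 0.699). Its difference of 1.04 did not pass (adjusted p = 0.206). NDC80, its partner in the complex, was at 0.28, -0.35 and -0.29 under miR-338-5p, and at -0.08 (pool), -0.73 and 0.01 under miR-421, with no call in either line (adjusted p = 0.734 and 0.337).

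CENPF, a large protein of the outer kinetochore, had the lowest ratio of any member on a miR-421 array. It was at -0.48, -1.21 and -1.13 under miR-338-5p, and at -0.83 (pool), -2.71 (replicate 1) and -1.07 (replicate 2) under miR-421. Its miR-421 mean of -1.53 ± 1.02 (SD, n = 3; adjusted p = 0.0353) became -0.95 without replicate 1, and the call held. A second CENPF probe gave -0.32 and -0.35, called lower in both lines (adjusted p = 0.0304 and 0.0141), so the probes differed in size and not in sign. The second probe was much dimmer, with a mean log2 intensity of 6.19 against 10.53. Its Cy5 was well above background on 2 of 3 miR-421 arrays. CENPA, the histone H3 variant of centromeres, was at 0.47, 0.06 and 0.27 under miR-338-5p, and at 0.38 (pool), -0.16 and 0.31 under miR-421, without a call (adjusted p = 0.249 and 0.358).

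**Figure D2:**
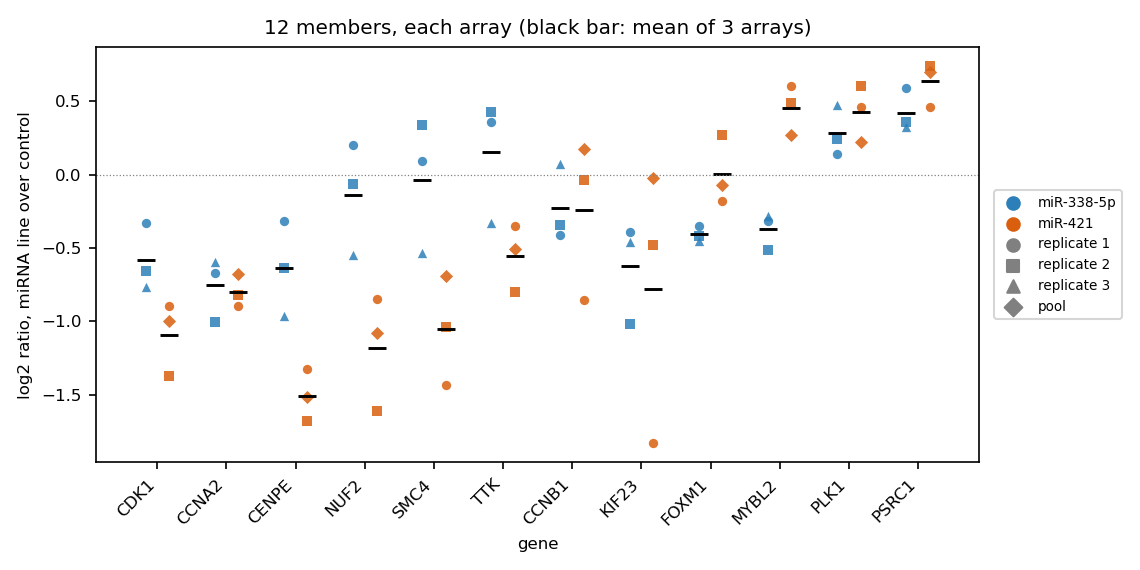
Log2 ratios of 12 members on each of the 6 arrays, with colour for the line, symbol for the replicate and a black bar for the mean of 3 arrays. CDK1, CENPE, NUF2, SMC4 and TTK are lower on every miR-421 array than on any miR-338-5p array, MYBL2 and FOXM1 are higher, and CCNB1 and KIF23 have their lowest value on miR-421 replicate 1.

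The spindle group, with 14 members, was lower in the mean for 13 members in each line, with 2 called lower and 1 higher in each. A mean below 0 was found for 50.2% of all genes in the miR-338-5p line and 48.6% in the miR-421 line. In the same order, 5.26% and 12.6% of all genes were called lower, and 3.99% and 10.0% higher. For a group of 14, the call counts in the miR-421 line do not stand apart from these shares. NUSAP1, which binds microtubules around chromosomes, had the lowest miR-338-5p mean of all members: -1.23, -1.84 and -1.20 on the 3 arrays, a mean of -1.42 ± 0.36 (SD, n = 3) that just missed the threshold (adjusted p = 0.0504). Under miR-421 it was at -0.55 (pool), -2.12 and -0.58 (adjusted p = 0.0612). TUBB4B, a beta-tubulin, was at -1.64, -1.21 and -0.70 under miR-338-5p and at -0.69 (pool), -1.10 and -0.43 under miR-421. It was called lower in both lines (adjusted p = 0.0252 and 0.0466), at 44.0% and 59.8% of control, in 10 and 7 of 18 alternatives.

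TPX2, an activator of AURKA on the spindle, was at -0.42, -0.47 and -0.28 under miR-338-5p, and at 0.09 (pool), -0.81 and 0.05 under miR-421. KIF11, the motor that pushes spindle poles apart, was at -0.43, -0.78 and -0.89 under miR-338-5p, and at -0.03 (pool), -1.56 and -0.35 under miR-421. Neither was called in either line, and in both genes replicate 1 was the lowest miR-421 array by more than 0.8. TACC3, a stabiliser of spindle microtubules, was called lower under miR-338-5p (mean -0.73 ± 0.33, SD, n = 3; adjusted p = 0.0446), in 5 of 18 alternatives. HMMR, a spindle-associated receptor for hyaluronan, was called lower under miR-421 (-0.81 ± 0.23, SD, n = 3; adjusted p = 0.017), in 16 of 18.

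The other 7 spindle members, KIF2C, CKAP5, CKAP2, CKAP2L, DLGAP5, GTSE1 and GAS2L3, were not called in either line. Their means ran from -0.59 to -0.16 under miR-338-5p and from -0.59 to -0.06 under miR-421. Without replicate 1 of miR-421 the same members ran from -0.26 to 0.22, on either side of 0.

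PSRC1, a microtubule-binding protein of the spindle, was the member with the highest mean in both lines. It was at 0.59, 0.36 and 0.32 under miR-338-5p and at 0.70 (pool), 0.46 and 0.74 under miR-421. It was above 0 on all 6 arrays and called higher in both lines (means 0.42 ± 0.14 and 0.63 ± 0.15, SD, n = 3; adjusted p = 0.0358 and 0.0082), in 5 and 15 of 18 alternatives. The probe (NM_032636) lies on chromosome 1 at 109822459 to 109822518, minus strand, hg19.

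Of 6 passenger complex and cytokinesis genes, ANLN was the only one called, under miR-338-5p, where 5.26% of all genes were called lower. Anillin, which scaffolds the contractile ring, was lower under miR-338-5p at -0.88 ± 0.28 (SD, n = 3; adjusted p = 0.0349; called in 8 of 18 alternatives) and at -0.57 ± 0.41 under miR-421 (SD, n = 3; adjusted p = 0.0608). BIRC5, the passenger protein survivin, was at -0.42, -0.12 and -0.09 under miR-338-5p, and at -0.14 (pool), -0.27 and -0.07 under miR-421, all below 0 and not called (adjusted p = 0.177 and 0.223). ECT2, which activates RhoA at the cleavage site, was at -0.16, -0.53 and -0.95 under miR-338-5p, and at -0.05 (pool), -0.81 and -0.37 under miR-421, again without a call (adjusted p = 0.13 and 0.171).

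The 10 genes of chromosome structure and the nuclear envelope had the lowest member median under both lines, -0.69 and -0.78. Of them, 2 and 3 were called lower, against 5.26% and 12.6% of all genes. Without miR-421 replicate 1 the miR-421 median of the group was -0.37, above that of the cyclin group (-0.52) and the kinetochore group (-0.49). MKI67, the surface coat of mitotic chromosomes known as Ki-67, was at -0.68, -1.07 and -0.88 under miR-338-5p, and at -0.17 (pool), -0.87 and 0.07 under miR-421. It was called lower under miR-338-5p (mean -0.88 ± 0.20, SD, n = 3; adjusted p = 0.0399) and not under miR-421 (-0.32 ± 0.49, SD, n = 3; adjusted p = 0.247). Of its other probes, 1 was called under miR-338-5p, at -0.44 (adjusted p = 0.025), and 1 was not, at -0.39 (adjusted p = 0.065). The MKI67 call under miR-338-5p was made in 6 of 18 alternatives. The difference between lines did not pass for MKI67 (adjusted p = 0.409).

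TOP2A, the topoisomerase that untangles sister chromatids, was at -0.36, -0.93 and -0.92 under miR-338-5p, and at -0.37 (pool), -1.44 and -0.42 under miR-421. Its means of -0.74 in both lines were not called (adjusted p = 0.107 and 0.0681). HMGB2, a chromatin protein, was at -0.15, -2.87 and -0.60 under miR-338-5p, and at -0.80 (pool), -1.27 and -0.61 under miR-421. A single array, miR-338-5p replicate 2, set its miR-338-5p mean of -1.21 ± 1.46 (SD, n = 3; adjusted p = 0.187). TMPO, a lamin-binding protein, was at 0.75, -0.09 and -0.03 under miR-338-5p, and at 0.32 (pool), -0.44 and 0.21 under miR-421, while its second probe had means of -0.12 and -0.22. Neither TMPO probe was called, and they differed in sign.

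Further members of this group were called lower under miR-421. SMC4, a core subunit of condensin, was at 0.09, 0.34 and -0.53 under miR-338-5p and at -0.69 (pool), -1.43 and -1.04 under miR-421, with no overlap between lines. Its miR-421 mean was -1.05 ± 0.37 (SD, n = 3; adjusted p = 0.0193), its second probe was called too at -0.87 (adjusted p = 0.0242), and the difference between lines did not pass (adjusted p = 0.225). ANP32E, a chaperone that removes the histone H2A.Z, was at -1.02 ± 0.50 (SD, n = 3; adjusted p = 0.0262), and both of its other probes were called as well. CDCA2, which brings a phosphatase to chromosomes, was called in both lines at -0.88 and -0.86 (adjusted p = 0.044 and 0.0281), in 6 and 12 of 18 alternatives. G2E3, a ubiquitin ligase of the remaining 4 members, was also called in both lines at -0.33 and -0.32, with Cy5 well above background on 2 of 3 miR-421 arrays, as for CKAP2L and KIF20B. NCAPD2, another condensin subunit, was at -0.81, -0.995 and -0.65 under miR-338-5p without a call (adjusted p = 0.0622), and its second probe had a mean of -0.72 there.

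The remaining members were not called. CDCA3, a trigger of mitotic entry, was above 0 on all 6 arrays, with means of 0.21 and 0.14 (adjusted p = 0.094 and 0.175). RANGAP1, the GTPase activator of Ran at the nuclear pore, had means of 0.19 and 0.26. FAM64A was below 0 on all 3 miR-338-5p arrays with a mean of -0.43, and had a mean of 0.00 under miR-421. CDCA8 of the passenger complex had means of -0.11 and -0.31, and was below 0 on all 3 miR-421 arrays. HN1 had means of -0.03 and -0.22, and KIF20B of 0.02 and -0.11.

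**Figure D3:**
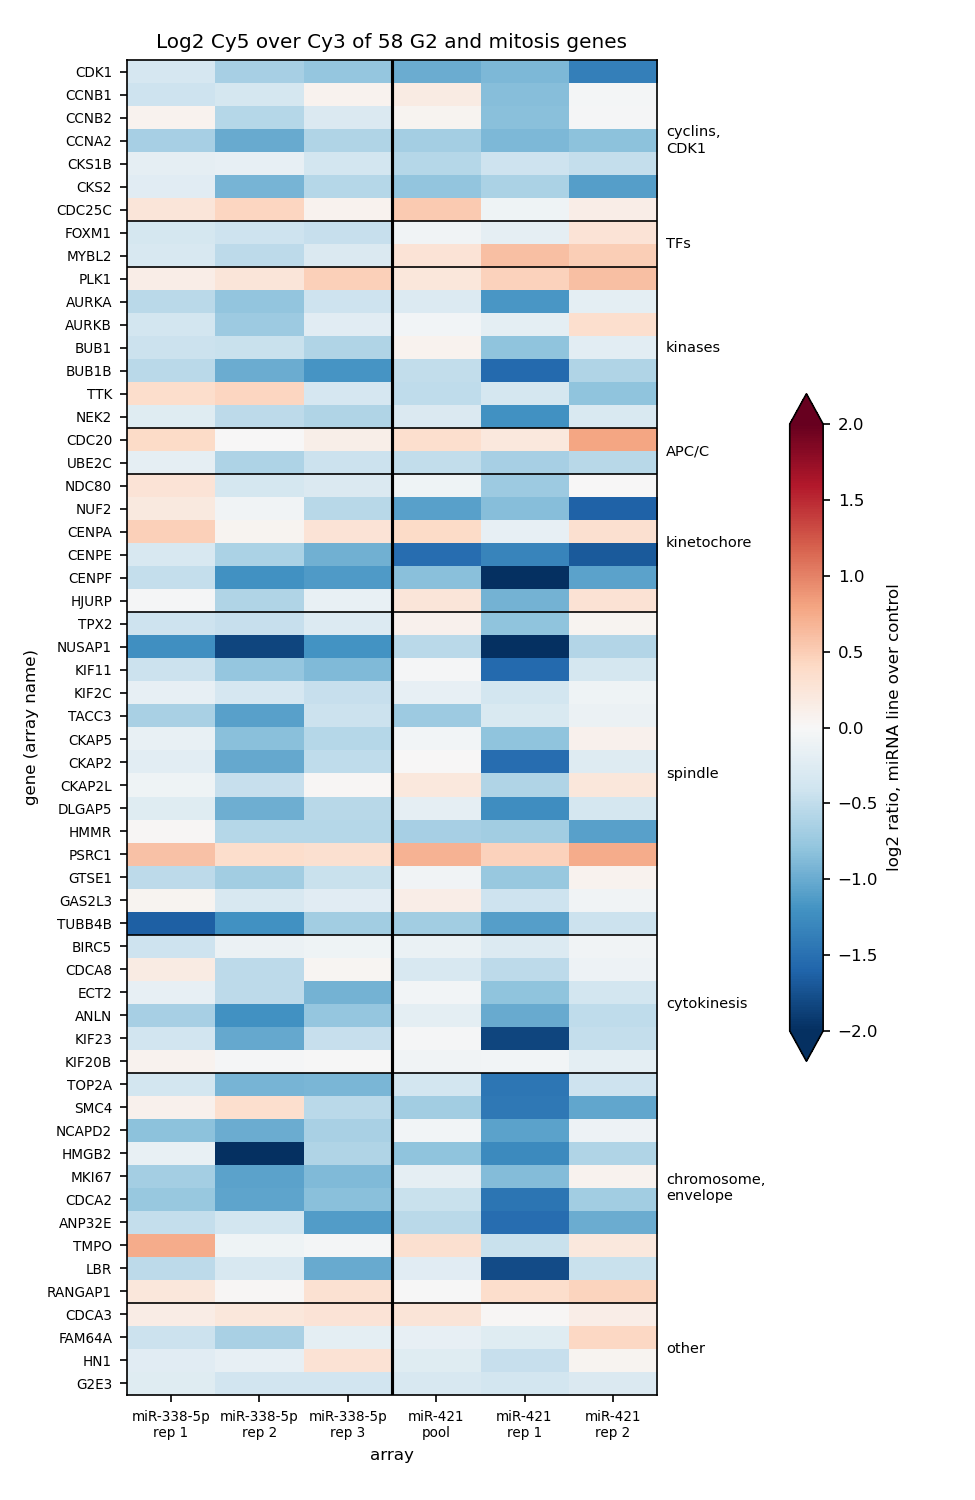
Log2 ratio of the 58 members (rows, grouped by role) on the 6 arrays (columns), with blue for lower and red for higher in the miRNA line and the colour scale ending at -2 and 2. Replicate 1 is the lowest of the miR-421 columns for 46 members, while CDK1, NUF2 and CENPE are also dark in the pool and replicate 2.

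Between the lines, 0 members passed the test of the difference (limma adjusted p under 0.05), as against 0.0461% of all genes (10 genes), and 9 members (15.5%) had an unadjusted p under 0.05, against 14.3% of all genes. On all 3 arrays 8 members were lower under miR-421 than on any miR-338-5p array: CDK1, CKS1B, TTK, NUF2, CENPE, HMMR, KIF20B and SMC4. Of all genes, 9.89% showed that pattern. Another 3 members, FOXM1, MYBL2 and AURKB, were higher on all miR-421 arrays, a pattern of 10.1% of all genes. Both member counts are near these shares and show nothing particular to these genes.

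How far the fall under miR-421 rests on replicate 1 was measured member by member. Replicate 1 was the lowest of the 3 miR-421 arrays for 46 of 58 members (79.3%), against 44.7% of all genes. It was lower than both other arrays by more than 0.5 for 25 members (43.1%), against 9.13% of all genes. The median member read 0.55 lower there (-0.55) than in the mean of the pool and replicate 2, against -0.03 for all genes. The spread lay in Cy5, the miRNA line: Cy5 of the median member was at -0.53 on replicate 1 relative to the other miR-421 arrays, while Cy3 was at 0.02. These single-dye values were read after quantile normalization of the mean intensities between arrays. What set this array apart was not tested.

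**Figure D4:**
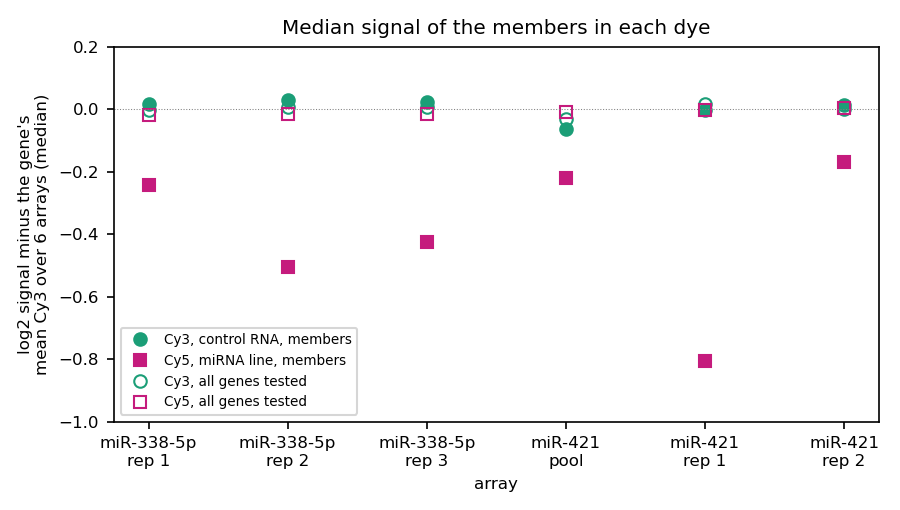
Median over the 58 members (filled) and over all tested genes (open) of the log2 signal in each dye, relative to each gene's mean Cy3 over 6 arrays. Signals are shown after quantile normalization of the mean intensities between arrays. Cy3 of the members stays between -0.06 and 0.03, while their Cy5 falls to -0.81 on miR-421 replicate 1 and lies between -0.50 and -0.17 on the other arrays.

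Without replicate 1 the member median under miR-421 was -0.16 in place of -0.35, with 0.01 for all genes, and 39 members had a mean below 0 in place of 46. The count called lower went from 15 to 9, against 6.29% of all genes in that fit, and the count called higher from 3 to 1, PSRC1. The 9 were CDK1, CCNA2, CKS1B, CKS2, NUF2, CENPE, CENPF, HMMR and CDCA2, all of them among the 15. The 6 lost were BUB1B, UBE2C, TUBB4B, SMC4, ANP32E and G2E3. Their means moved unequally: little for G2E3 (-0.32 to -0.31) and UBE2C (-0.57 to -0.52), and more for BUB1B (-0.89 to -0.55). TUBB4B went from -0.74 to -0.56, SMC4 from -1.05 to -0.87 and ANP32E from -1.02 to -0.76. That fit also had fewer arrays, and calls over all genes fell from 12.6%, so a lost call alone does not measure dependence on replicate 1. In the pool and replicate 2 alone, 33 members (56.9%) were below 0 on both arrays, against 37.5% of all genes, and 12 (20.7%) were below -0.5 on both, against 6.05%.

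The members differed in how they depended on that array. For CDK1, CKS2, NUF2, CENPE and HMMR, replicate 2 was the lowest miR-421 array, and for CKS1B it was the pool. Their means without replicate 1 were lower than with it, such as -1.19 for CDK1, -1.35 for NUF2 and -1.60 for CENPE. In the opposite case, KIF23, a motor of the cytokinetic midzone, was at -1.83 on replicate 1 and had a mean of -0.25 on the other arrays. LBR, the lamin B receptor, read -1.79 there against -0.34, CKAP2 -1.53 against -0.12, and HJURP, the chaperone of CENPA, -0.94 against 0.27. For 6 members (10.3%) replicate 1 was below 0 and both other arrays were above it, against 10.5% of all genes. SMC4, HMMR, KIF23, LBR, CKAP2, HJURP and the called members outside the naming rule were chosen for the text after their values were seen.

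**Figure D5:**
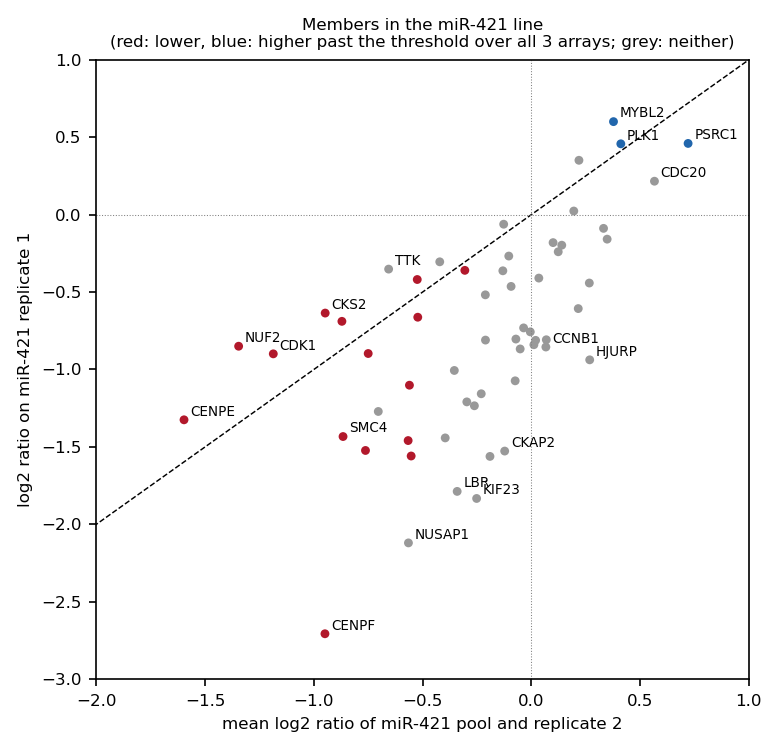
Log2 ratio on miR-421 replicate 1 against the mean of the miR-421 pool and replicate 2 for each member, with the line of equal values dashed and members called lower in red and higher in blue. CENPE, NUF2, CDK1, CKS2 and TTK lie above the line, and most other members lie below it, with CENPF, NUSAP1, KIF23 and LBR farthest down.

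Replicate 1 was not the only array that counts turned on. Without miR-421 replicate 2, 2 members were called lower under miR-421, CDK1 and CENPE, against 1.44% of all genes. Without the pool, 11 were called, against 6.95%. For miR-338-5p, leaving out its replicate 1, 2 or 3 took the count of 12 to 0, 1 or 2, while calls over all genes fell from 5.26% to 1.35%, 1.19% and 0.894%. The fit shares 1 estimate of the spread, so miR-421 arrays also moved the miR-338-5p calls: without miR-421 replicate 1, 24 members were called lower under miR-338-5p, against 8.16% of all genes, 11 of them among the 12. Without the miR-421 pool or replicate 2 that count was 2, against 2.52% and 1.61% of all genes.

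Other genes of the same pathways, taken from a list of 100 symbols of which 96 were measured, had medians of -0.18 in the miR-338-5p line and -0.27 in the miR-421 line, or -0.14 without replicate 1. Under miR-338-5p 9 were called lower (9.38%) and 2 higher (2.08%), against 5.26% and 3.99% of all genes. Under miR-421 24 were called lower (25%, beside 25.9% of the members) and 3 higher (3.12%), against 12.6% and 10.0% of all genes. Of 23 kinetochore and checkpoint genes, 4 were called lower and 1 higher under miR-338-5p and 8 lower and 1 higher under miR-421. CENPN, a centromere protein that reads CENPA, was called lower in both, at -0.57 and -1.18 (adjusted p = 0.0375 and 0.00449). Its other tested probes were not called, 1 at -0.15 and -0.31 (adjusted p = 0.527 and 0.138) and 1 at -0.15 and 0.02 (adjusted p = 0.341 and 0.921). The CENPN calls thus rest on 1 probe. CENPM was the gene called higher, at 0.74 and 0.87 (adjusted p = 0.00455 and 0.00189).

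Of 6 condensin subunits, 2 were called lower in the miR-338-5p line and 3 in the miR-421 line. Beside this count and those that follow, 5.26% and 12.6% of all genes were called lower in these lines, and 3.99% and 10.0% higher. Subgroups this small are described by count only. SMC2, the partner of SMC4 in condensin, was called in both lines, at -0.84 and -1.004 (adjusted p = 0.04 and 0.0155). Of 13 genes of cohesin and its release, 0 and 3 were called lower, and of 15 motors and cytokinesis genes 1 and 3. ASPM, a protein of spindle poles, was at -0.96 and -1.89 (adjusted p = 0.0437 and 0.00579). Of 16 APC/C genes, 1 and 2 were called lower and 1 and 1 higher. Of 11 MuvB and DREAM genes, 0 and 2 were called lower. Of 12 brakes and activators of CDK1, 1 and 3 were called lower, and CDKN1A, the CDK inhibitor p21, was called higher under miR-421 at 0.73 (adjusted p = 0.033).

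Promoters were read for the members because a shared motif pair is known for G2 genes: the cell cycle homology region (CHR), searched as TTTGAA or TTCGAA, and the CCAAT box bound by NF-Y, each on both strands. The window ran from 250 bases before to 50 bases after the start of transcription, in RefSeq sequence of GRCh38.p14, and 47 of 58 members matched. A CHR was found in 33 of the 47 (70.2%), against 16.4% of all 35116 promoters, and CCAAT in 32 (68.1%), against 34.6%. Both were found in 27 (57.4%), against 6.38%. The 5 stretches that follow are the 120 bases before the start, with motif matches in capitals, and were chosen to set members that moved in different directions side by side.
CKS2: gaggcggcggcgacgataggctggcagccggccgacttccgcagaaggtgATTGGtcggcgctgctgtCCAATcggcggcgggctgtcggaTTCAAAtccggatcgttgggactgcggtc
CCNB2: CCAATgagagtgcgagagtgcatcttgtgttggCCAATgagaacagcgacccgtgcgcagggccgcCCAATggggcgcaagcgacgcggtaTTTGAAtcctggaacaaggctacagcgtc
PLK1: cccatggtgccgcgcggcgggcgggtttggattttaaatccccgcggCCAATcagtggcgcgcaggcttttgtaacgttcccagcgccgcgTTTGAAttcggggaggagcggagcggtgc
PSRC1: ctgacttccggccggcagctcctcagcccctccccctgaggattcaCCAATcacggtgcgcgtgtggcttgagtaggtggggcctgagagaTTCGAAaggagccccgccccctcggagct
CENPE: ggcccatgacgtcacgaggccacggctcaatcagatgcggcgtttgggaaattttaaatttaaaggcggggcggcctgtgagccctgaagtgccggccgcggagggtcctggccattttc

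In CKS2 (chr9:89311075-89311194, plus strand), CCNB2 (chr15:59105026-59105145, plus strand), PLK1 (chr16:23678769-23678888, plus strand) and PSRC1 (chr1:109283146-109283265, minus strand) the CHR began 29 bases before the start. The nearest CCAAT box began 52, 54, 73 and 74 bases before it, in the same order. CKS2 was called lower under miR-421, CCNB2 was called in neither line, PLK1 was called higher under miR-421 and PSRC1 higher in both. CENPE (chr4:103198344-103198463, minus strand), called lower in both lines, held neither motif in its window. Members with a CHR 29 bases before the start thus had means of either sign. Their arrangement was not the same, since the distance of the CCAAT box differed and the CHR of CKS2 was on the opposite strand. A match is a description of the letters only.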

How the data were processed

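The data were 6 Agilent 2-colour arrays. The authors used Feature Extraction 11.5.1.1, per the file headers. Their deposited files give unnormalized intensity: the spot mean and the local background median of each dye. A deposited log10 ratio (Cy5 over Cy3) was made by the software after background subtraction and dye normalization. The authors' table of the series has log2 ratios, with a normalization not given in the sources used here. Both were alternatives. Flags for outlier spots and for spots well above background were those of the image software, per the file headers. A poly(A) tail was added before oligo-dT labelling, per the labels' protocols. Probes were placed on hg19, per the file headers, and no exon or UTR annotation was used.

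The background was corrected by normexp (offset 50) and each array normalized by a loess fitted without control spots. Outlier spots were left out after that step. For values of a single dye, the mean intensities were also quantile normalized between arrays. Of 58201 probes, the 27503 that exceeded background clearly on 3 or more of 6 arrays, in Cy3 or Cy5, were tested. All 6 arrays entered 1 limma fit (limma 3.58.1, R 4.3.3) with a mean per group, each mean tested against 0 and the difference tested, two-sided, with p adjusted over probes by Benjamini-Hochberg (0.05). The fit was tested on simulated data. Alternatives were 18 for most genes. Members, role groups, lists and naming rule were chosen with earlier results of these data known. Values on each array were given for 24 members set by name and for the 3 lowest and 3 highest means of each line. Precision is limited by the number of arrays. Of the 13 members with several tested probes, 14 of 15 further probes had the sign of the chosen probe in each line. Promoters and miRNAs were matched by symbol, through the older name where needed, and sequences are RefSeq's. Promoters of FOXM1, AURKA, TTK, UBE2C, TPX2, BIRC5, HMGB2, CDCA2, ANP32E, FAM64A and HN1 were not used here.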

Additional observations from a re-analysis of the deposited data

Results flagged for a closer look

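MYBL2 was below 0 on all 3 miR-338-5p arrays and above 0 on all 3 miR-421 arrays. The difference of the lines was -0.83 on the log2 scale, and it did not pass limma's test over all probes (adjusted p = 0.084).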

How the results depend on the processing

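The median of the members stayed below 0 in both lines under all alternatives, and moved beyond the spread between arrays only with median centring, to -0.59 under miR-338-5p. Counts of calls moved more. Members called lower under miR-338-5p (12) were 5 with local background subtracted or with median centring, 2 without a filter on dim probes, with the authors' table or with the ratio of the image software, and 0 with the group's own 3 arrays. The 1 member called higher under miR-338-5p became 0 under those 6 alternatives and with trended, robust variance. Under miR-421, median centring gave 9 lower and 1 higher. With the replicate block (4 arrays numbered 1 and 2), all 4 counts were 0, and so were calls over all genes (0 lower and 0 higher). Same-numbered arrays correlated at -0.14 and -0.21 in their deviations from the group means, and the other pairs of arrays across lines at -0.15 to 0.20. With so few arrays these values cannot show whether same-numbered arrays share more than a number, and the labels do not say. With 1 array left out, members called lower ranged from 0 to 24 under miR-338-5p and from 2 to 14 under miR-421, members called higher from 0 to 1 and from 0 to 3, medians from -0.50 to -0.33 and from -0.45 to -0.16, and calls between lines stayed at 0. The shares of all genes called lower ranged from 0.894% to 8.16% and from 1.44% to 12%. Those called higher ranged from 0.705% to 5.68% and from 0.992% to 8.9%. The cause of these moves was not tested, except that fewer arrays or more probes enter some fits.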
